A study of Mus musculus with 13 samples.

Results

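The loss of the TGF-β type II receptor was compared between 2 neighbouring tissues of the embryonic spine, the presumptive intervertebral disc (IVD) and the presumptive vertebrae, to ask whether a gene's difference between mutant and control embryos depended on the tissue. For each probe set (the set of oligonucleotides that reads 1 transcript on an array) the tissue by genotype interaction was computed as IVD minus vertebrae in mutants, minus IVD minus vertebrae in controls. It equals the genotype difference (mutant minus control) in IVD minus the genotype difference in vertebrae, so a value above 0 means that the mutant difference was more positive in IVD and a value below 0 that it was more positive in vertebrae. All 13 of the 13 arrays of the study and all 45037 non-control probe sets entered the comparison.

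The lumbar tissues were cut by laser from sections of mouse embryos at E13.5, and the RNA of each sample, 50 ng, was amplified in 2 cycles before hybridization. The control embryos carried no Cre (Cre-;Tgfbr2lox/wt, so 1 Tgfbr2 allele was floxed but intact) and gave 3 IVD and 3 vertebrae arrays, taken from the same mice. The mutant embryos expressed Cre under the Col2a promoter, which is active in cartilage precursors and their descendants, over floxed Tgfbr2 alleles, and gave 4 IVD arrays (labelled Cre+;Tgfbr2lox/lox) and 3 vertebrae arrays (labelled Cre+;Tgrbr2lox.lox). Cells that do not use the Col2a promoter, such as endothelium, nerve or blood, were not targeted in either tissue, and which part of each captured sample had lost the gene is not stated.

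TGF-β ligands bind the type II receptor, which recruits and activates a type I receptor, and the activated complex phosphorylates Smad2 and Smad3, which enter the nucleus with Smad4 and change transcription. In the embryonic spine the sclerotome gives rise both to the cartilage of the vertebrae and to the fibrous annulus of the disc, and TGF-β signaling is known to favour fibrous differentiation there and to limit cartilage differentiation. A gene that depends on this signal in one of the tissues and not in the other would show an interaction.

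No probe set had an interaction at an adjusted p under 0.05 in limma (0 of 45037, 0%), and the smallest adjusted p was 0.999987. At an unadjusted p under 0.05 there were 619 probe sets (1.37%), of which 357 lay above 0 (0.793%) and 262 below 0 (0.582%). With a difference of at least 2-fold as well, 265 probe sets remained (0.588%), 199 above 0 (0.442%) and 66 below 0 (0.147%). The 1.37% is less than the share of 0.05 that this threshold passes where no interaction exists, so these counts are no excess. Every gene below is therefore described by its values and its unadjusted 95% interval, and none is called changed. The adjusted p of each named probe set was 0.999987. All p-values and intervals measure the spread between these arrays. The interaction is a difference of differences over 4 groups of 3 or 4 arrays, and its standard error had a median of 0.37 on the log2 scale, with 90% of probe sets between 0.21 and 0.80. The 95% interval of a typical probe set reached 0.80 to either side, so smaller interactions of such a probe set were not detectable even before adjustment. The adjusted threshold is stricter, and the largest interaction on the array, 4.86, was not called either. The genotype difference within a tissue was not called for any probe set either (0 in IVD with 1411 at an unadjusted p under 0.05, and 0 in vertebrae with 1177).

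The control IVD and control vertebrae arrays of the same number deviated together from their group means. When these pairs were treated as a random block, limma still called 0 probe sets, but the count at 2-fold and an unadjusted p under 0.05 went from 265 to 426, with 312 above 0 and 114 below. The excess above 0 turned with 1 array. Without mutant vertebrae 1, which had the widest spread of values (median absolute deviation 0.604, against 0.190 to 0.287 in the other 12 arrays), the count was 394, of which 142 lay above 0 and 252 below. Leaving out other single arrays gave counts from 173 (without control IVD 3) to 583 (without control IVD 1), and those for control vertebrae 2, mutant vertebrae 3 and mutant IVD 2 were 537, 447 and 436. Quantile normalization gave 339, with 61.1% above 0 in place of 75.1%, and scaling every array to the same spread gave 212, with 64.6% above 0.

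Tgfbr2, the targeted gene, did not separate the genotypes in either tissue. All values here are log2, relative to the probe set's median over the 13 arrays, so they compare arrays and not the levels of different genes. The Tgfbr2 probe set with the smallest p read 0.78, 0.99 and -0.52 in control IVD and 1.31, 0.48, 0.00 and 0.30 in mutant IVD. Its vertebrae values were 0.00, -0.02 and -0.42 in controls and -2.10, -0.68 and -0.17 in mutants. The groups overlapped in both tissues, and the lowest value came from mutant vertebrae 1. The interaction was 0.94 (95% interval -0.58 to 2.47), or 0.38 without mutant vertebrae 1 and 0.47 without control IVD 3, and the lowest of the 3 probe sets of the gene gave -0.01. Which exons these probes read was not analysed here, so the values do not check the deletion. In bulk samples such as these, fewer cells of a type and less RNA per cell cannot be told apart.

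The tissue labels were checked against marker lists, using the mean log2 value over a list's genes. The fibrous matrix list of 29 genes, typical of the annulus, lay at 0.37 to 1.07 in control IVD and at -0.45 to -0.15 in control vertebrae. In mutants it read 0.94, 0.49, -0.87 and 0.43 in IVD and -0.99, -0.63 and 0.03 in vertebrae, so mutant IVD 3 lay with the vertebrae. The cartilage matrix list of 24 genes ran from -1.11 to 0.14 in control IVD and from 0.05 to 0.92 in control vertebrae. Without mutant IVD 3 the count of probe sets at 2-fold and an unadjusted p under 0.05 was 325, with 243 above 0. Transcripts of other organs were uneven: control vertebrae 1 (4.89), control IVD 1 (4.72), mutant IVD 4 (3.04) and mutant IVD 3 (2.22) carried liver transcripts, and all others stood at 0.34 or less on that list. The centred log2 value of a 3-prime probe set minus that of a 5-prime one compares RNA integrity between arrays and is no absolute ratio. For Gapdh it had group means of 0.0886 in control IVD, 0.598 in mutant IVD, 0.113 in control vertebrae and 0.375 in mutant vertebrae. For Actb they were -0.617, -0.169, -0.382 and 0.0663 in the same order. Both measures thus had higher means in mutants of both tissues, with interactions of 0.248 and 0.000190, but the groups overlapped. For Gapdh, mutant IVD 4 (1.40), mutant vertebrae 1 (1.14) and mutant IVD 1 (1.10) were highest. Mutant IVD 2 (-0.19) and mutant vertebrae 2 (-0.08) lay below control IVD 1 (0.49) and control vertebrae 1 (0.48). The part of RNA integrity in the results was not tested.

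Y-linked transcripts were uneven in both mutant groups. The mean of 4 Y-linked genes was 1.34 to 1.78 in 5 mutant arrays and between -0.21 and 0.04 in all controls, mutant vertebrae 3 and mutant IVD 3. Eif2s3y, a Y-linked translation factor gene, had an interaction of 0.62 (standard error 2.06), and Xist, the RNA that coats the inactive X chromosome, had one of -1.09 (standard error 3.58). A fit with that mean as a covariate gave 308 probe sets at 2-fold and an unadjusted p under 0.05, 237 of them above 0. The genotype difference of Xist was -6.76 in IVD and -5.66 in vertebrae, and that of Eif2s3y was 3.94 and 3.32. No control array was high in Y-linked transcripts, so mutant minus control was largely also a comparison of sexes in both tissues. The part of sex in the genotype differences within a tissue was not tested.

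The gene with the smallest unadjusted interaction p was Tspan13, which encodes a tetraspanin of the cell membrane. It read 0.24, -0.39 and -0.99 in control IVD and 0.44, 0.42, 0.89 and 0.60 in mutant IVD, so every mutant IVD array lay above every control IVD array. In vertebrae the order was the opposite, with 0.00, -0.38 and 0.09 in controls and -1.03, -1.36 and -0.97 in mutants, again without overlap. The genotype difference was 0.97 (standard error 0.26) in IVD and -1.02 (standard error 0.28) in vertebrae. The interaction was 1.99 (95% interval 1.17 to 2.82). The other probe set of Tspan13 gave 1.04, and with single arrays left out the first value ran from 1.69 to 2.30.

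Plxna2, which encodes a semaphorin co-receptor of the plexin family, had the same crossed order. It read 0.15, 0.03 and -0.72 in control IVD and 0.50, 0.29, 0.68 and 0.60 in mutant IVD. Among the vertebrae arrays it read 0.00, -0.39 and -0.60 in controls and -1.09, -0.72 and -1.15 in mutants. Neither pair of groups overlapped. Its interaction was 1.36 (95% interval 0.62 to 2.09), and all 4 of its probe sets lay above 0. The others differed by 0.20, 0.03 and -0.06 in IVD and by -0.52, -0.68 and -0.32 in vertebrae. The higher values in mutant IVD thus rest mainly on the probe set described.

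Alcam, a cell adhesion molecule of the immunoglobulin family, lay below 0. Its probe set with the smallest p read 0.41, -0.24 and 0.05 in control vertebrae and 0.88, 1.504 and 1.89 in mutant vertebrae, without overlap. In IVD the controls at -0.13, -0.21 and -0.51 and the mutants at -0.47, 0.00, 0.00 and -0.68 overlapped, with a genotype difference of 0.00. The interaction was -1.35 (95% interval -2.19 to -0.51). The other 4 probe sets of the gene were higher in mutant IVD too, by 0.36, 0.80, 0.80 and 1.04, so the absence of a difference in IVD rests on the 1 probe set. All 5 probe sets of Alcam lay below 0, from -1.35 to -0.18, and their mean differed by 0.60 in IVD and 1.17 in vertebrae (interaction -0.57).

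Because these 3 genes had small p-values in either direction and the deleted receptor signals through Smads, the stretch around the start of each is shown from RefSeq (GRCm38.p6), 300 bases each, most of them upstream of the start. The 3 genes are examples. Maf and Aplnr were looked up too but not matched, and other genes with small p-values, such as Foxp1 and Terb1, were not looked up. Tspan13 is at chr12:36042429-36042728 on the minus strand, Plxna2 at chr1:194619579-194619878 on the plus strand and Alcam at chr16:52453032-52453331 on the minus strand, each printed 5′ to 3′. Capitals mark CAGAC on either strand (GTCTG on the printed one), the short letters that Smad proteins are known to bind, which was found in 16292 of 32851 stretches of this length in the table (49.6%).
Tspan13: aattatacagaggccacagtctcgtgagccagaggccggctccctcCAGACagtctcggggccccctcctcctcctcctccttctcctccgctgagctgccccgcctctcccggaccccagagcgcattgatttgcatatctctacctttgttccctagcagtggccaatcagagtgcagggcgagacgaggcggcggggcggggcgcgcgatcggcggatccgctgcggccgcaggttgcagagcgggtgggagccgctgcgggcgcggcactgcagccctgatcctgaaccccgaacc
Plxna2: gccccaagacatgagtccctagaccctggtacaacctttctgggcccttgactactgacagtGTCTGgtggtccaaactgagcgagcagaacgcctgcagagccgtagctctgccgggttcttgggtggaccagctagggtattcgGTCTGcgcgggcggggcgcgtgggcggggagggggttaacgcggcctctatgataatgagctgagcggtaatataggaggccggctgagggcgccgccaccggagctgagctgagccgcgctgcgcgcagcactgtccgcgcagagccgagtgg
Alcam: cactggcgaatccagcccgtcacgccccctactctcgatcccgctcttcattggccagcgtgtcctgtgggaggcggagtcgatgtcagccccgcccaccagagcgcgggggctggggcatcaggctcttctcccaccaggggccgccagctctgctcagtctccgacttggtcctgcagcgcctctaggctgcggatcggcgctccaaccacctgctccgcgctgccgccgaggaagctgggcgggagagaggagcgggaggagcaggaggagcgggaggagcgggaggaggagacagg
Tspan13 held 1 match, Plxna2 2 and Alcam 0. The palindrome GTCTAGAC, which holds the same letters on both strands and stands in 70 of the stretches (0.213%), was in none of them. With the short motif in so many promoters a match is a description of these letters and not of a bound site.

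Several transcription regulators and enzymes followed Tspan13 in order of p. Foxp1, a forkhead transcription factor, read -0.15, 0.00 and -0.66 in control IVD against 1.09, 0.69, 0.43 and 0.88 in mutant IVD. In vertebrae it read 0.09, -0.18 and 0.22 in controls and -0.82, -0.60 and -0.05 in mutants. The IVD groups did not overlap and the vertebrae groups did. Its interaction was 1.57 (95% interval 0.82 to 2.32), and all 8 probe sets of the gene lay above 0, from 0.40 to 1.60. Runx1t1, a transcriptional co-repressor, had 0.06, 0.00 and -1.07 in control IVD and 1.04, 1.16, 0.83 and 0.86 in mutant IVD, a difference of 1.31, while the vertebrae differed by -0.90 with overlap. Its interaction was 2.21 (95% interval 1.15 to 3.28), and all 6 probe sets lay above 0.

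Maf, a leucine zipper transcription factor that acts in differentiating chondrocytes, read -0.35, -0.62 and -0.63 in control IVD and 0.32, 0.28, 0.58 and 0.19 in mutant IVD. Its vertebrae values were 0.00, 0.86 and 0.23 in controls and -0.10, -0.15 and -0.03 in mutants, so neither pair of groups overlapped. The interaction was 1.33 (95% interval 0.70 to 1.95), and 5 of 6 probe sets lay above 0. Pfkfb4, an enzyme that sets the rate of glycolysis, differed by 0.54 in IVD and by -0.54 in vertebrae, also without overlap in either tissue, and gave an interaction of 1.08. Cers4, a ceramide synthase, and Fgfbp3, a secreted carrier of fibroblast growth factors, did not overlap in either tissue and had interactions of 1.48 and 1.47. The other probe sets of Cers4 gave 0.52 and 0.05. The latter was higher in mutants of both tissues, by 0.62 in IVD and 0.57 in vertebrae. Wipf3, which binds regulators of actin, and Ryr3, a calcium release channel, differed mainly in IVD, by 1.07 and 1.20, with interactions of 1.33 and 1.16. Another probe set of Ryr3 gave -0.87, so that gene's probe sets disagreed in sign.

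**Figure D1:**
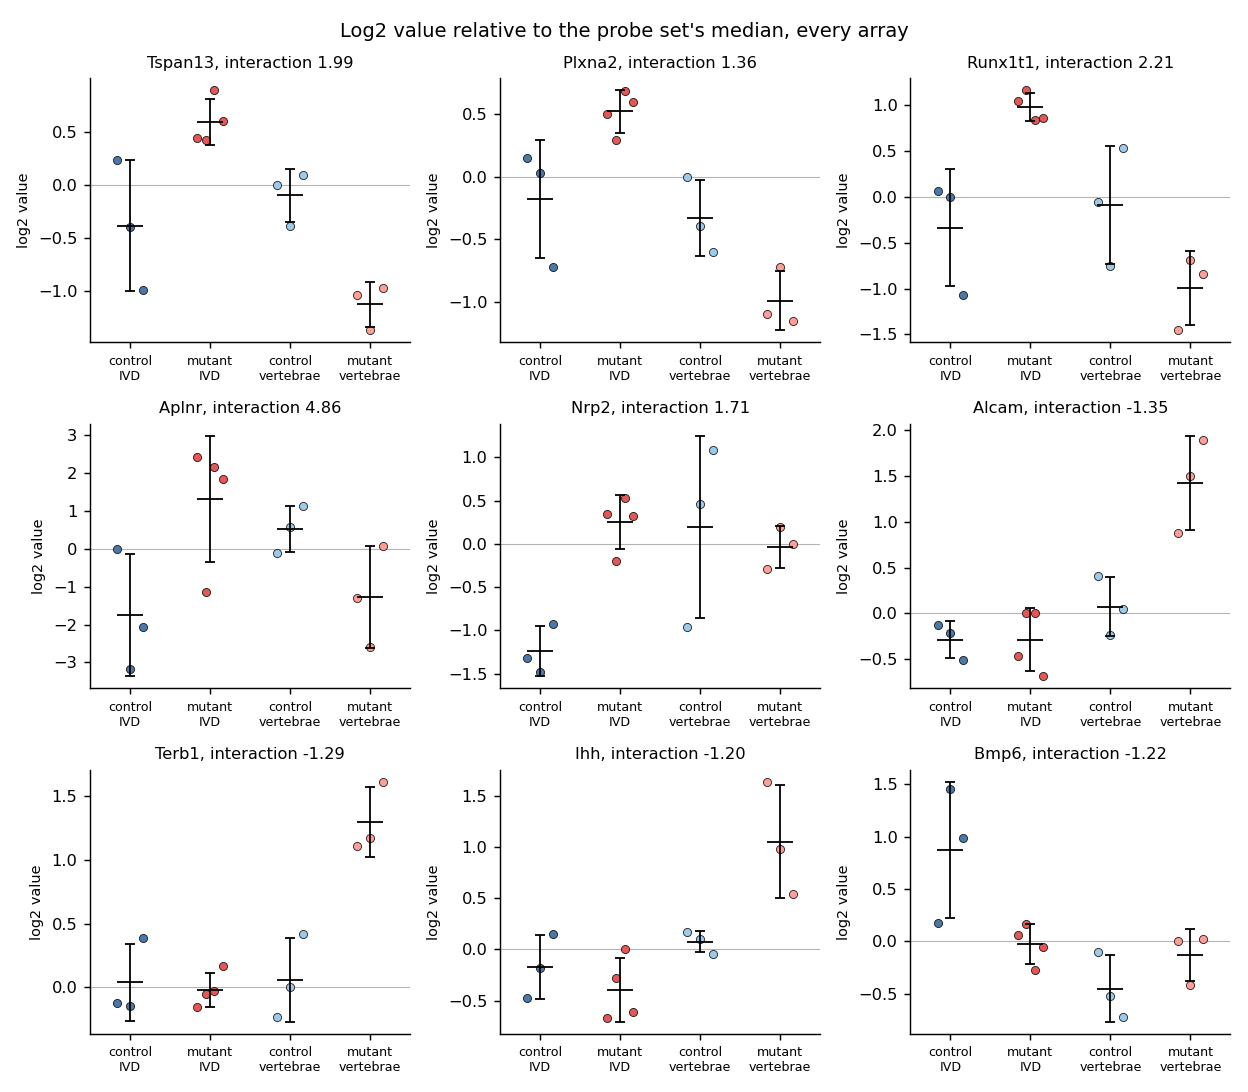
Log2 value relative to the probe set's median over the 13 arrays (vertical axis) of 9 genes in every array, by group, with the group mean and SD as black lines. The probe sets shown of Tspan13 and Plxna2 lie higher in all 4 mutant IVD arrays than in control IVD. In vertebrae they lie lower in all 3 mutant arrays than in controls. The probe sets shown of Alcam, Terb1 and Ihh lie higher in mutant vertebrae with overlapping IVD groups.

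Among the genes with an interaction below 0, Terb1 had the smallest p. Terb1, which tethers telomeres in meiosis, read 1.11, 1.17 and 1.61 in mutant vertebrae against -0.23, 0.00 and 0.42 in control vertebrae, with no overlap. Its IVD values overlapped, and the interaction was -1.29 (95% interval -1.95 to -0.64), but its second probe set gave -0.14. Cobll1 read 1.24, 2.39 and 1.67 in mutant vertebrae and 1.37, 0.00 and 0.48 in control vertebrae. In IVD it read -0.47, -1.53, -0.94 and -1.16 in mutants and 0.23, -0.10 and -0.59 in controls. Each pair of groups overlapped through 1 array, the interaction was -2.02 (95% interval -3.20 to -0.84), and its second probe set gave -1.99. Snap29, a membrane fusion protein, differed by -0.66 in IVD and 0.40 in vertebrae (interaction -1.06), but another of its 3 probe sets gave 0.43. The remaining genes named in this direction had interactions between -0.97 and -0.77 and were Fcsk, Proca1, Kyat3, Cpxm2, Slc1a4 and the uncharacterised Gm20383.

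A genotype difference of at least 2-fold in both tissues with opposite sign was found in 28 probe sets by size alone, all higher in mutant IVD and lower in mutant vertebrae, and in 0 the other way round. Of these, 10 had an unadjusted interaction p under 0.05 (0.0222% of all probe sets, against 0% for the other direction), from 9 named genes and 1 probe set without a name. They were Aplnr, Kif5c, Ttyh1, Pclo, Nrp1, Cdh2, Chgb, Astn1 and 6330415B21Rik. Aplnr, the apelin receptor of vascular endothelium, had the largest interaction on the array. It read 0.00, -3.18 and -2.06 in control IVD and 2.41, -1.14, 2.14 and 1.84 in mutant IVD. Among the vertebrae arrays it read -0.10, 0.57 and 1.11 in controls and -1.29, -2.60 and 0.07 in mutants. The groups overlapped in both tissues, through mutant IVD 2 and mutant vertebrae 3. The interaction was 4.86 (95% interval 1.87 to 7.85), its second probe set gave 1.51, and across all alternatives it ran from 3.86 to 5.73.

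Nrp1, a neuropilin that binds semaphorins and VEGF and is used by both axons and vessels, read 0.70, -2.15 and -2.001 in control IVD and 0.31, -1.04, 1.81 and 1.003 in mutant IVD. In vertebrae it read 0.64, -0.24 and 0.56 in controls and -1.19, -1.34 and 0.00 in mutants. The groups overlapped in both tissues, and the interaction was 2.84 (95% interval 0.47 to 5.22), with all 4 probe sets above 0. Kif5c, a kinesin of neurons, read -0.26, -0.21 and 0.00 in control IVD and 2.34, 1.30, 2.38 and 0.10 in mutant IVD, which did not overlap, and differed by -1.15 in vertebrae. Its interaction was 2.83 (standard error 0.81), although 1 of its 4 probe sets gave -0.19. Pclo, a scaffold protein of the presynaptic zone, and Ttyh1, a membrane protein of neural cells, had interactions of 2.65 and 2.29. Each of these values rests on 1 probe set. The other probe sets gave 0.50 and 0.23 for Pclo and 0.27, 0.08 and 0.04 for Ttyh1. Both genes were highest in mutant IVD 3 (Pclo 3.06, Ttyh1 2.12) and control vertebrae 3 (2.19 and 2.36). Cdh2 (N-cadherin), Chgb, a protein of secretory granules, and Astn1, a neuronal adhesion protein, had interactions of 2.41, 3.46 and 2.36.

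The same arrays carried the most neuronal transcripts. Averaged over 24 neuronal genes, mutant IVD 3 stood at 2.47 and control vertebrae 3 at 1.998, while the other 11 arrays lay between -0.73 and 0.52. All 24 neuronal genes had an interaction above 0 (9255 of all 18193 measured genes did, 50.9%), with a median of 1.16 against 0.00 over all genes, and 20 of them had opposite signs in the 2 tissues, as did 38.8% of all genes. None had an unadjusted p under 0.05, where 1.4% of all genes did, and 0 genes of any list passed an adjusted p of 0.05 (0%). Isl1, a homeobox factor of motor neurons, stood at 3.66 in mutant IVD 3, at 3.61 in control vertebrae 3 and at most at 1.49 elsewhere. The median of the neuronal list was 0.67 with control vertebrae 3 left out and 0.60 with mutant IVD 3 left out. Leaving out control vertebrae 3 took the count of probe sets with opposite signs from 10 to 3, leaving out mutant IVD 3 took it to 6, and leaving out the 4 arrays with liver transcripts to 5. It was also lower with control IVD 2 (6) or control IVD 3 (5) left out, and higher with control IVD 1 (38), control vertebrae 2 (31), mutant IVD 2 (24), mutant vertebrae 3 (20) or mutant IVD 1 (18) left out. With the neuronal mean as a covariate, the interactions were 3.86 for Aplnr, 2.15 for Kif5c, 1.88 for Nrp1, 1.59 for Pclo and 1.501 for Ttyh1. The median of the neuronal list was then -0.01, a value set near 0 in advance, because the covariate is the mean of that list. What part the neuronal transcripts had in the other interactions was not tested beyond this.

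Endothelial genes leaned the same way. All 18 had an interaction above 0, with a median of 0.64 made up of 0.35 in IVD and -0.20 in vertebrae, and 15 of them had opposite signs in the 2 tissues (38.8% over all genes). At an unadjusted p under 0.05, which 1.4% of all genes passed, there were 3, Aplnr, Cldn5 and Cdh5. Cldn5, a tight junction protein of endothelium, read 0.33, -0.93 and -1.41 in control IVD and 1.77, -0.80, 1.42 and 1.69 in mutant IVD. Its vertebrae values were 0.45, -0.28 and 0.15 in controls and 0.00, -1.03 and -0.20 in mutants, and the groups overlapped in both tissues. Its interaction was 2.20 (95% interval 0.31 to 4.10), and that of Cdh5, the cadherin of endothelial junctions, was 0.96 (95% interval 0.16 to 1.77). The smallest values were those of Pecam1 at 0.20 and of Esam and Flt1 at 0.21.

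The mean of the endothelial list by array was 0.35, -0.56 and -0.40 in the IVD of controls and 0.66, -0.34, 0.48 and 0.43 in that of mutants. For vertebrae it was 0.26, -0.12 and 0.19 in controls and -0.01, -0.55 and -0.01 in mutants. Mutant IVD 2 was low and control IVD 1, one of the arrays with liver transcripts, was high, so the IVD groups overlapped. The median of the list ran from 0.40 with the neuronal covariate to 0.83 over the alternatives, and 17 or 18 of its genes stayed above 0 in every one. Other blood-borne or vascular lists were less even: 9 of 12 macrophage genes and 11 of 11 erythroid genes lay above 0, and with single arrays left out the erythroid median of 0.86 ran from -0.49 (without control vertebrae 1) to 1.98 (without control IVD 1). The liver list, with 13 of 14 above 0 and a median of 1.38, ran from -0.48 to 3.25 without the same arrays.

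**Figure D2:**
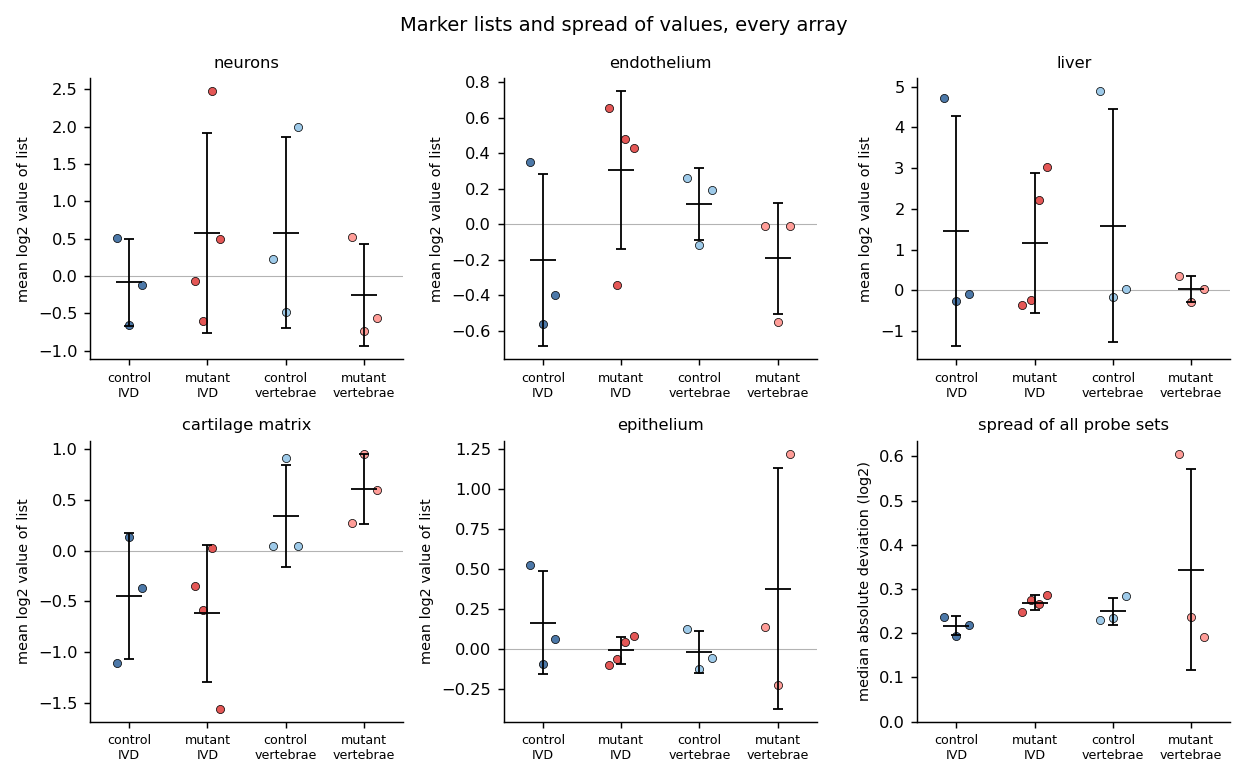
Mean log2 value of the neuronal, endothelial, liver, cartilage matrix and epithelial lists, and the median absolute deviation of all probe sets, in every array by group, with the group mean and SD as black lines. Mutant IVD 3 and control vertebrae 3 are highest for neurons (2.47 and 1.998), 4 arrays carry liver transcripts, and mutant vertebrae 1 has the widest spread (0.604).

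Axon guidance molecules, many of which also act on vessels and sclerotome, mostly lay above 0 (29 of 34, median 0.24). The genotype difference had a median of 0.30 in IVD and 0.05 in vertebrae, so these genes were mainly higher in mutant IVD. Nrp2, a neuropilin like Nrp1, read -1.32, -1.48 and -0.92 in control IVD and 0.34, -0.20, 0.53 and 0.32 in mutant IVD, without overlap. Among the vertebrae arrays it read -0.97, 0.46 and 1.08 in controls and -0.29, 0.19 and 0.00 in mutants. Its interaction was 1.71 (95% interval 0.48 to 2.94), and all 4 probe sets lay above 0. Plxnd1, a plexin of vessels, differed by 1.22 in IVD and -0.08 in vertebrae, with an interaction of 1.30 (95% interval 0.18 to 2.42). Robo2 and Slit2, a receptor and its repulsive ligand, had gene means of 1.44 and 1.24, both with an unadjusted p over 0.05. The lowest were the semaphorins Sema3c at -0.40 and Sema3d at -0.29. The median of the list was 0.15 without mutant IVD 1 and 0.11 with array weights.

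A genotype difference of at least 2-fold in IVD with less than 0.25 in vertebrae was seen in 90 probe sets higher in mutant and 43 lower, and 26 and 7 of these had an unadjusted interaction p under 0.05 (0.0577% and 0.0155%). With single arrays left out these counts ran from 15 (without control IVD 3) to 75 (without control IVD 1) and from 3 (without control vertebrae 1 or control IVD 2) to 33 (without control IVD 1 or mutant IVD 1). Nrp2, Nsg2, Ryr3, Runx1t1 and Hoxc10 were among the 19 named genes that were higher. Runx1t1 entered not by the probe set described above but by another, with differences of 1.15 in IVD and -0.19 in vertebrae. Nsg2, a protein of neuronal endosomes, read 0.00, -0.65 and 0.00 in control IVD and 1.39, 1.59, 1.70 and 1.14 in mutant IVD, all 4 above every control. In vertebrae it differed by 0.10, and the interaction was 1.57 (95% interval 0.63 to 2.51). Of the 6 named genes that were lower, C1qtnf3, a secreted protein of the C1q family, had the largest difference. It read -1.66, 0.00 and -0.75 in control IVD and -2.27, -4.14, -1.56 and -3.77 in mutant IVD, with a small overlap, and differed by 0.05 in vertebrae. Its interaction was -2.18 (95% interval -4.003 to -0.36).

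Sfrp5, a secreted Wnt antagonist, read -0.07, 2.90 and 2.26 in control IVD and 0.10, -0.73, -0.02 and 0.07 in mutant IVD, and differed by 0.17 in vertebrae. The low value of control IVD 1 made the IVD groups overlap, and the interaction was -2.01 (95% interval -3.87 to -0.15). Pcgf5, a Polycomb subunit, and Skap2, a Src kinase adaptor, were lower in all 4 mutant IVD arrays than in any control IVD array and had interactions of -1.01 and -1.35. This holds for 1 probe set of each gene. The other probe sets differed in IVD by -0.34 and -0.18 for Pcgf5 and by 0.13 and 0.16 for Skap2. Gna14, a G protein subunit, was also in this class through 1 of its 3 probe sets.

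In vertebrae alone, by the same sizes, 36 probe sets were higher in mutants and 127 lower, and 8 and 5 of these had an unadjusted interaction p under 0.05 (0.0178% and 0.0111%). With single arrays left out they ran from 3 (without control IVD 3) to 62 (without mutant vertebrae 1) and from 1 (without control IVD 3) to 35 (without mutant vertebrae 3). The named higher genes were Terb1, Alcam (through 1 of its 5 probe sets) and Trabd2b, a membrane protease that acts on Wnt proteins, which read 1.07, 1.43 and 1.24 in mutant vertebrae and -0.15, 0.58 and -0.42 in control vertebrae. The 5 lower ones were Ppip5k1, Hoxc8, Eml5, Hmgb3 and Noct. Ppip5k1, an inositol pyrophosphate kinase, read -1.26, -0.85 and -0.07 in mutant vertebrae and 0.71, 1.01 and 0.53 in control vertebrae, without overlap, with an interaction of 1.25. Its other probe set differed by -0.11 in vertebrae and 0.27 in IVD, with an interaction of 0.39. Hoxc8 read -2.07, -0.92 and -0.35 in mutant vertebrae and -0.45, 0.77 and 0.47 in control vertebrae, and Hmgb3, a chromatin protein, -1.53, -0.68 and -1.59 against 1.64, -0.54 and 0.69. For Hoxc8 and Ppip5k1 the lowest value came from mutant vertebrae 1. Nearest the limit of 0.25 for the other tissue were Skap2, inside at 0.245 in vertebrae, and Syt1, a synaptic vesicle protein, outside at -0.2502. Nearest the limit of 1 for opposite signs were Ttyh1, inside at -1.04 in vertebrae, and Tspan13, outside at 0.97 in IVD.

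The genes of the TGF-β pathway itself did not lean to either side. Of 20 ligands, receptors and Smads, 10 lay above 0 and 10 below, with a median of 0.01 and a range from -0.55 for Inhba, an activin subunit, to 0.62 for Eng, the endothelial co-receptor endoglin. None had an unadjusted p under 0.05. Among the Smads the gene means were -0.02 for Smad2, -0.07 for Smad3, -0.15 for Smad4 and -0.24 for the inhibitor Smad7. Tgfb3, a ligand of the pathway, read 1.13, 1.49 and 0.93 in the IVD of controls against 1.84, 0.66, -1.46 and 0.85 in that of mutants. Its vertebrae values were -0.20, 0.00 and -0.43 for controls and -1.80, -0.34 and -0.49 for mutants, lowest in mutant vertebrae 1. The genotype difference was -0.71 in IVD and -0.66 in vertebrae, and the interaction was -0.05 (95% interval -1.99 to 1.90). Of 18 genes that TGF-β induces in many cell types, 9 lay above 0 and 9 below, with a median of -0.02.

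Cartilage matrix genes lay mostly below 0. Of 24 genes, 22 had an interaction below 0, with a median of -0.39 made up of -0.19 in IVD and 0.34 in vertebrae, and none had an unadjusted p under 0.05. Comp, a glycoprotein of cartilage matrix, read 2.9997, 3.30 and 2.14 in mutant vertebrae and -0.29, 2.72 and 1.47 in control vertebrae. In IVD it read -1.75, -1.63, 1.14 and -2.68 in mutants and -2.56, 0.00 and -0.08 in controls, and the interaction was -1.86 (standard error 1.37). With single arrays left out it ran from -2.70 (without control IVD 1) to -1.07 (without control vertebrae 1). Hapln1, which links aggrecan to hyaluronan, had an interaction of -1.51 (standard error 1.03), with all 4 probe sets below 0, and this was -0.84 without mutant IVD 4 and -0.91 without control IVD 2. Col2a1, the main collagen of cartilage, and Acan, its main proteoglycan, gave -0.67 (standard error 0.73) and -0.34 (standard error 0.56), and Sox9, the factor that drives chondrocyte fate, 0.24 (standard error 0.38). The median of the list stayed below 0 in every alternative, between -0.72 and -0.07. It was nearest 0 without control IVD 2 (-0.07), mutant IVD 4 (-0.09, the array with the lowest cartilage matrix mean, -1.56), mutant vertebrae 2 (-0.18) or control vertebrae 3 (-0.21) and with the neuronal covariate (-0.18), and farthest from 0 without control IVD 1 (-0.72) or control vertebrae 2 (-0.68).

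Signals of growth plate cartilage also lay mostly below 0. Ihh, the hedgehog ligand that maturing chondrocytes secrete, read 1.64, 0.98 and 0.54 in mutant vertebrae and 0.17, 0.10 and -0.04 in control vertebrae, without overlap. In IVD it read -0.67, -0.28, 0.00 and -0.61 in mutants and -0.47, -0.19 and 0.15 in controls, and the interaction was -1.20 (95% interval -2.03 to -0.37). Bmp6, a BMP ligand of hypertrophic cartilage, differed mainly in IVD, where it read 0.18, 1.46 and 0.98 in controls and 0.06, 0.17, -0.28 and -0.05 in mutants, without overlap. Its vertebrae values overlapped, at -0.10, -0.52 and -0.73 in controls and 0.00, -0.42 and 0.02 in mutants, and its interaction was -1.22 (95% interval -2.09 to -0.34). Of the 12 genes of hypertrophic cartilage these 2 passed an unadjusted p of 0.05 (1.4% of all genes did), and 9 lay below 0, with a median of -0.33. That median was -0.10 without mutant vertebrae 1, -0.18 without control IVD 3 or mutant IVD 2 and -0.02 with arrays scaled to the same spread. Col10a1, the collagen of hypertrophic cells, gave -0.09.

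In the BMP pathway 11 of 26 genes lay above 0. Bmp6 and Nog, a secreted BMP antagonist with -0.67, had an unadjusted p under 0.05 by gene mean, as did 1.4% of all genes. In the limma fit to single probe sets, the only probe set of Nog had an unadjusted p of 0.056. In the Wnt pathway 15 of 30 lay above 0. Wnt4, a ligand of joint precursors, read 1.66, 0.82 and 2.57 in mutant vertebrae and -0.12, 0.07 and 0.00 in control vertebrae, without overlap, against a difference of 0.52 in IVD, and its interaction was -1.18 (standard error 0.54). The Wnt antagonists went both ways, Frzb at -1.44 (95% interval -2.76 to -0.12) and Sfrp1 at 1.48 (95% interval 0.37 to 2.59). Of 15 hedgehog pathway genes 10 lay below 0, led by Ihh, while the targets Gli1 and Ptch1 gave -0.48 and -0.14. The probe sets of Hhip, another gene of this pathway, gave -1.74, -1.52, -0.60 and -0.40.

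Posterior Hox genes, which set position along the trunk, lay above 0 in 10 of 14 cases (median 0.27). Hoxc10 read 0.07, -0.07 and -1.37 in control IVD and 1.79, 1.13, 0.87 and 0.997 in mutant IVD, without overlap, while the vertebrae did not differ (0.00), and its interaction was 1.65 (95% interval 0.31 to 2.997). Hoxa11 differed by 0.55 in IVD and -0.22 in vertebrae (interaction 0.77, 95% interval 0.11 to 1.43). The most posterior members, Hoxd13 and Hoxa13, lay below 0, at -0.74 and -0.64. The median of the list moved with the processing, between 0.01 without the 4 arrays with liver transcripts and 0.37 without control IVD 1, and the fits that left out control vertebrae 1 or 3 gave 0.09 and 0.14. Zic1, a zinc finger factor of dorsal sclerotome and neural tissue, read -1.16, -1.43 and -2.95 in control IVD and 0.90, 0.36, 1.17 and 0.75 in mutant IVD, without overlap. It differed by 0.66 in vertebrae, where mutant values ran from -1.43 to 1.62, and its interaction was 1.98 (standard error 0.91).

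Cell cycle genes had a median genotype difference of -0.73 in vertebrae and -0.48 in IVD, with no gene called in either tissue, and 34 of 36 had an interaction above 0. None had an unadjusted interaction p under 0.05. The mean of the list by array was 0.94, 0.77 and -0.09 in the IVD of controls and 0.51, 0.07, -0.24 and 0.05 in that of mutants. For vertebrae it was 0.997, -0.06 and -0.27 in controls and -1.11, -0.41 and -0.14 in mutants. The groups overlapped in both tissues, and the highest arrays, control vertebrae 1 and control IVD 1, were those of the controls that carried liver transcripts, whose part in the difference was not tested. The median interaction of 0.33 rested on single arrays: leaving out control vertebrae 1 gave 0.00, control IVD 3 gave 0.04, mutant vertebrae 1 gave 0.13, mutant IVD 1 gave 0.15 and control vertebrae 3 gave 0.58, and array weights gave -0.15. Ube2c, which drives exit from mitosis, had the largest value, 1.12 (standard error 0.96). Epithelial genes went the other way, with 11 of 12 below 0 and a median of -0.51. Their list mean was 1.22 in mutant vertebrae 3 and at most 0.53 in any other array, and the median was -0.16 without that array. Cldn7, a claudin of epithelial junctions, was the 1 member with an unadjusted p under 0.05 (1.4% of all genes passed), at -0.57. Of 9 notochord genes 8 lay below 0, with a median of -0.32 that was 0.09 without control vertebrae 3. Among these Krt19, a keratin also found in simple epithelia, had an interaction of -1.62 (95% interval -2.97 to -0.26), and read 1.52 in mutant vertebrae 3 and 1.13 in control IVD 3.

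**Figure D3:**
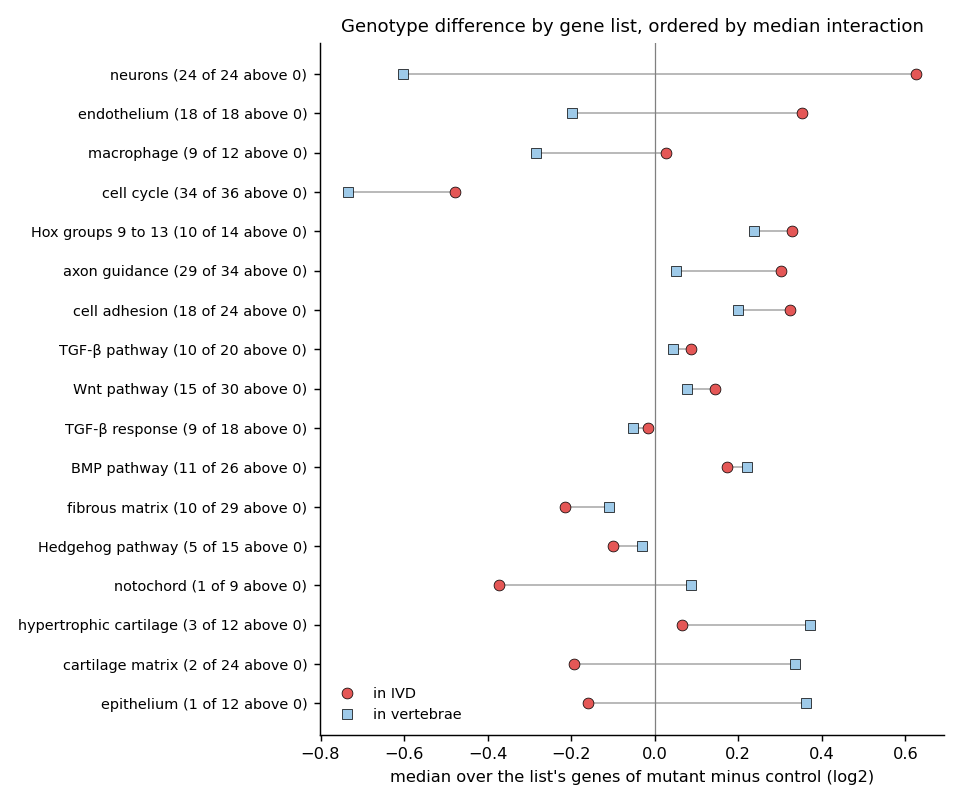
Median over the genes of each list of mutant minus control (horizontal axis, log2) in IVD (circles) and in vertebrae (squares), ordered by the median interaction, with the number of genes whose interaction was above 0. Neuronal and endothelial genes lie above 0 in IVD and below 0 in vertebrae, cartilage matrix and epithelial genes the other way round, and the TGF-β pathway lies near 0 in both.

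Genes that the study singled out on these same arrays are no independent evidence, but their interactions show how far each difference was shared by the tissues. Of 13 genes listed as lower in mutant IVD, 10 had an interaction below 0, with a median of -1.01. Their genotype difference had a median of -1.23 in IVD and -0.64 in vertebrae. Aspn, a small proteoglycan of fibrous tissue, read 0.94, 3.27 and 2.59 in control IVD and 1.45, 0.49, -2.11 and -0.45 in mutant IVD, and differed by -0.16 in vertebrae. Its interaction, -2.26 (standard error 1.16), was the lowest on the array. The other probe set of Aspn differed by -2.19 in IVD and by -1.37 in vertebrae, with an interaction of -0.82. The small difference in vertebrae thus rests on the probe set given first. Gdf5, a growth factor of joint precursors, read 2.01, 3.23 and 2.82 in control IVD and 2.58, 2.45, -1.07 and 0.76 in mutant IVD, with an interaction of -1.29 (standard error 1.05). Mutant IVD 3 was the lowest array for both genes, and without it Gdf5 gave -0.54 and the median of the 13 genes was -0.34, against -0.56 without control IVD 2 and -0.61 without control vertebrae 3. With the neuronal covariate it was 0.34, and without the 4 arrays with liver transcripts -0.15.

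Fmod, a proteoglycan of the annulus, was lower in mutants of both tissues by all 6 of its probe sets. The one with the smallest p read -0.89, 0.27 and -0.45 in control vertebrae and -2.29, -2.07 and -0.98 in mutant vertebrae, without overlap, against a difference of -0.49 in IVD. Over the 6 probe sets the difference ran from -1.22 to -0.49 in IVD and from -1.86 to -1.298 in vertebrae, and the interaction from 0.61 to 0.93. Wif1, a Wnt inhibitor, had an interaction of -0.71 with a standard error of 1.80, and mutant IVD 3 and mutant vertebrae 1 lay at -3.04 and -3.99. Of 9 genes listed as vertebrae-enriched and higher in mutant IVD, all 9 were above 0 by gene mean in both tissues, by a median of 0.86 in IVD and 0.76 in vertebrae. Ebf1, an early mesenchymal transcription factor, read -1.73, -3.12 and -1.76 in control IVD and -0.83, -0.22, 0.57 and -0.16 in mutant IVD. In vertebrae it read 0.10, 0.00 and 0.07 in controls and 1.07, 1.51 and 1.03 in mutants, again without overlap, and its interaction was 0.89 (95% interval -0.26 to 2.04), or 0.43 without control IVD 2. The other probe sets of Ebf1 gave interactions of 0.82, 0.17, 0.03 and -0.01. The members with a larger difference in vertebrae were Alcam, Dtna, a component of the dystrophin complex, and Prkg2, a kinase that acts in growth plate cartilage, with interactions of -1.35 (the probe set above), -0.96 and -0.34. The median interaction of the 9 genes was 0.48. It was 0.04 without mutant IVD 3, 0.19 without mutant vertebrae 1, 0.30 without control IVD 2, 0.06 with the neuronal covariate, 0.12 without the 4 arrays with liver transcripts and -0.18 without these and mutant vertebrae 1.

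**Figure D4:**
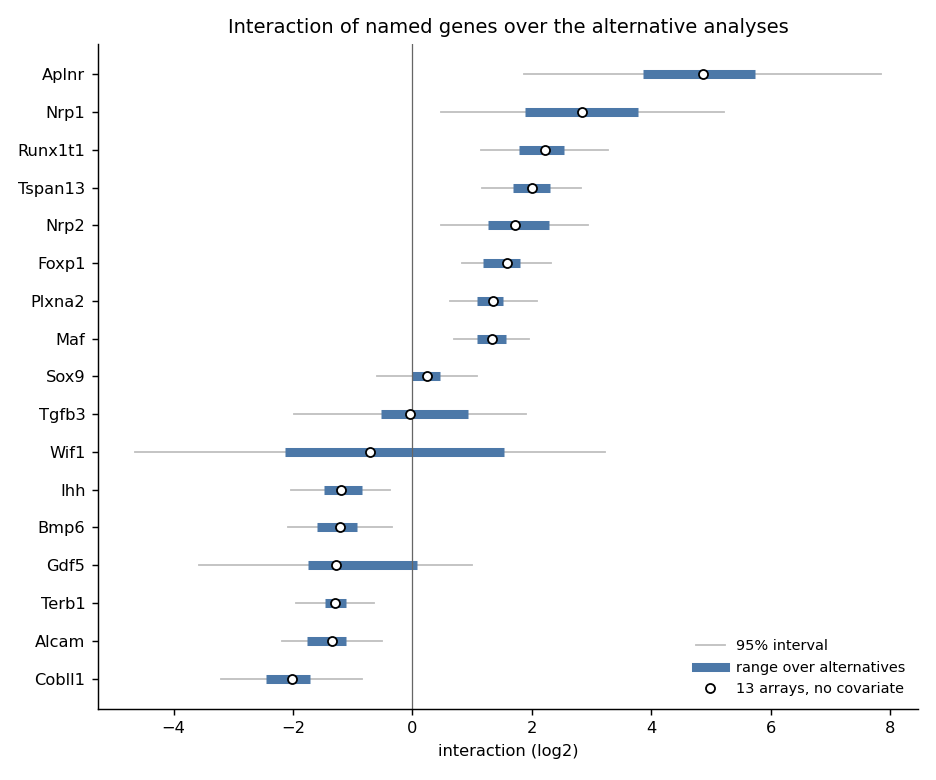
Interaction (horizontal axis, log2) of 17 genes with all 13 arrays (open circles), with its 95% interval (thin grey lines) and the range over 27 alternative analyses (blue bars). The bars of Tspan13, Plxna2, Runx1t1, Aplnr, Terb1, Alcam and Ihh stay on one side of 0, and those of Sox9, Tgfb3, Wif1 and Gdf5 cross it.

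The 37 genes chosen for their p or for a large difference in one or both tissues, through 38 probe sets, kept the sign of their interaction in all 27 alternative analyses, with values of 0.472 to 1.44 times those reported. These genes were picked by the same values, so this describes how far the numbers move and is no test. In none of the alternatives did any probe set reach an adjusted p of 0.05, and the smallest, in the fit without control IVD 1, was 0.835.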

How the data were processed

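Laser-captured lumbar IVD and vertebrae of mouse embryos were profiled on 13 Affymetrix mouse whole-genome arrays, described as biological replicates. The authors computed log2 expression values by RMA, and the deposited log2 values are centred on each probe set's median over the 13 arrays, so they give differences between arrays and not levels. The small number of arrays per group sets the precision.

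Groups were taken from the sample labels. After 64 control probe sets were left out, a model with 4 groups was fitted to 45037 probe sets with limma 3.58.1 (R 4.3.3; lmFit and eBayes, two-sided, Benjamini-Hochberg adjustment), which was tested on simulated data first. A probe set was named where the platform annotation gave 1 gene (34945), and not where it gave several (932) or none (9160). For gene lists (39 lists, 604 genes measured) all probe sets of a gene were averaged.

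The genes named per group were those with the smallest unadjusted p, by direction (10), by opposite sign (6), by difference in 1 tissue (4) and by list (3), each shown by its probe set of smallest p, plus the targeted gene, tissue and sex markers and the genes the study singled out. Cdh2, Chgb, Astn1, Syt1, list members given as lowest or highest and similar examples were chosen after their values were seen. Members, lists and tests were chosen with earlier results of these data known. Control IVD and vertebrae came from the same mice, and arrays of the same number deviated together in controls (r = 0.80, 0.57 and 0.57 over probe sets) and not in mutants (-0.40, 0.24 and -0.15), so the control numbers were treated as pairs in an alternative fit. Dim probe sets were not filtered, since centred values hold no level.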

Additional observations from a re-analysis of the deposited data

Results flagged for a closer look

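In 4 of 52 comparisons within the group of 4 mutant IVD arrays, 1 array stood apart from the other 3 by more than Dixon's 95% limit (the gap to the nearest array over the range of the group). Chance alone passes that limit in about 1 in 20 groups. Among the genes, Aplnr had a ratio of 0.839 with mutant IVD 2 at -1.14 and the next array at 1.84, and Sfrp5 had a ratio of 0.852 with the same array at -0.733 and the next at -0.0195. The mean of the skeletal muscle list had a ratio of 0.881, with mutant IVD 4 at 1.81 and the next array at 0.0913. The mean of the X inactivation list had a ratio of 0.925, with mutant IVD 3 at 0.576 and the next array at -3.15. With single arrays left out, the interaction of Aplnr ran from 4.14 to 5.73.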

How the results depend on the processing

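All alternatives, by limma or the unequal variance test, called 0 probe sets. The count at 2-fold and an unadjusted p under 0.05, 265 with all arrays, was 841 with array weights (291 above 0), 122 with an unequal variance test, 556 with the neuronal mean as a covariate, 409 without the 4 arrays with liver transcripts, 538 without these and mutant vertebrae 1, and 79 with gene means, where fewer features were tested. With control pairs as a random replicate block it was 426, with pairs of both genotypes 316, and with a fixed replicate block 454. Single arrays left out gave 173 to 583. The runs without the liver arrays and mutant vertebrae 1 and with arrays scaled to the same spread, and those of the classes of genes, were added after seeing the data. The causes of these shifts were not tested.

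The 37 genes chosen by p or by size changed sign in none of 27 alternatives. Of the other genes, Tgfb3 (-0.05) was 0.0899 with the liver covariate, 0.923 with the neuronal covariate, 0.7005 without the liver arrays and 0.239 without these and mutant vertebrae 1, and ran from -0.508 to 0.599 with single arrays left out. Wif1 was 1.53 with the neuronal covariate and 0.782 without the liver arrays, and ran from -1.91 to 0.533. Gdf5 was 0.0716 without the liver arrays and mutant vertebrae 1. With single arrays left out Sox9 ran from -0.00663 to 0.459, Acan from -0.703 to 0.0870, Eif2s3y from -1.14 to 1.95 and Xist from -3.35 to 2.04.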

Other observations

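Adhesion, osteoblast and other lists not described above were less uniform than the endothelial or cartilage lists. Of 24 cell adhesion genes 18 lay above 0, with a median of 0.20 that was 0.10 without control vertebrae 3 and -0.02, with 12 above 0, under the neuronal covariate. In the same list Pcdh7, a protocadherin, and Lsamp, a neuronal adhesion protein, lay below 0 at -0.60 and -0.92. Lsamp read 1.38, 2.26 and 1.76 in the IVD of controls and 0.67, -0.25, -0.10 and 0.15 in that of mutants, and its genotype difference in vertebrae was -0.76. Jun, an immediate early transcription factor, had an interaction of 1.19 (95% interval -0.11 to 2.49), with mutant IVD 3 at 0.08 and the other mutant IVD arrays at 1.48 to 1.85.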
